A study of Mus musculus with 3 samples.

Results

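The genes described here mark macrophages of the mouse embryo, and they were read in the primordia of 3 gut organs. The set was given by name: Csf1r, Ptprc, Aif1, Cd68, Adgre1, Cx3cr1, Mrc1, C1qa, C1qb and Tyrobp. The rule is the list of names itself and sets no threshold on a measured value, though the names were chosen with earlier results of these data known. Of the 10 genes, 9 had a probe that could be named, and Cd68 matched no probe by the naming used. The array may still carry a probe for Cd68. The 9 genes were read by 16 probes, of 16998 named genes and 41112 probes in all. Each of the 9 had a probe well above background in all 3 organs.

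The esophagus, stomach and intestine primordia came from embryos of the outbred ICR strain at embryonic day 11.5. The labels name no genotype, allele or agent beyond the strain, and say neither how many embryos gave a sample nor whether tissue was pooled. The extraction protocol names only the stomach, in all 3 samples, so the organ was taken from the tissue label. Total RNA was labelled with the dye Cy3 and hybridised to 1-colour Agilent mouse arrays, with 1 array per organ. All arrays sat on the same slide, and position there cannot be told apart from organ. There are no replicates, so no difference below has a test or a p-value, and with so few arrays the precision of each value is limited.

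Macrophages of the early embryo arise mainly from yolk sac progenitors, seed the organ primordia along the young vessels before bone marrow exists, and clear dying cells and debris. They depend on signalling through the receptor encoded by Csf1r. In the adult gut wall, macrophages of the mucosa and muscle are known for clearing dead cells and for their exchange with enteric neurons. A bulk sample holds all cells of an organ primordium, so fewer macrophages and less RNA per macrophage cannot be told apart in these data.

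PU.1, the product of Spi1, is a transcription factor of the myeloid lineage that binds purine-rich sites built around the letters GAGGAA. The RefSeq promoter table (assembly GRCm38.p6) was searched for the members on all chromosomes but 1. This gave 7 promoters of 6 of the 10 genes: Ptprc with 2 starts, and Aif1, Cd68, Cx3cr1, Mrc1 and C1qb with 1 start each. The 250 bases before the start are shown for the 4 genes with 1 start and a probe. Whether these letters go with the organ levels was not tested. Capitals mark GAGGAA or, on the other strand, TTCCTC, and each sequence runs 5′ to 3′ along its gene.
Mrc1, chr2:14229164-14229413, plus strand: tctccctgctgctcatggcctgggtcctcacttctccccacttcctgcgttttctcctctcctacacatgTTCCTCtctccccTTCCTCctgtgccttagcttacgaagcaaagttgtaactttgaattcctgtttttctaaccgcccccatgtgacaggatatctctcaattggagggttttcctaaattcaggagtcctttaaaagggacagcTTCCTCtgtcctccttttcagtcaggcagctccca
C1qb, chr4:136886201-136886450, minus strand: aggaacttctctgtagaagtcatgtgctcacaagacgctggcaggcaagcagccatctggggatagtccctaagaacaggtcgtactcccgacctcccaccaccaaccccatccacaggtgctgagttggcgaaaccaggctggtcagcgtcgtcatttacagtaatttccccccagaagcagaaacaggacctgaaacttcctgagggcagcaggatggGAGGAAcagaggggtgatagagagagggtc
Aif1, chr17:35176053-35176302, minus strand: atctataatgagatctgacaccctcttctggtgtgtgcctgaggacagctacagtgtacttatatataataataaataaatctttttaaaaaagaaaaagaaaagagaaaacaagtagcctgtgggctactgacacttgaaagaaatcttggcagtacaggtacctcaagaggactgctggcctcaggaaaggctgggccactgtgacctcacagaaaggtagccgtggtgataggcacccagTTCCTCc
Cx3cr1, chr9:120068297-120068546, minus strand: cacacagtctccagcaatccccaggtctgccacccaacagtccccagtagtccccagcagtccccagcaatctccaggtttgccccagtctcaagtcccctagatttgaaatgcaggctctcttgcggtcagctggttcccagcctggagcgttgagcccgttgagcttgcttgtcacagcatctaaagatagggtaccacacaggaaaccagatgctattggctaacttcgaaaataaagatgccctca
Of the 7 promoters, 5 held the 6 letters on 1 strand or the other, against 23.3% of all 32851 promoters in the table. No chromosome was left out of that share. The Mrc1 promoter held them 3 times, beginning 180, 167 and 35 bases before the start, and 0.429% of all promoters held 3 or more. C1qb had 1 match, 30 bases before the start, and Aif1 had 1 match, 7 bases before it. Cd68 had 1 match at 225 bases, Ptprc had 1 at 158 bases before its first listed start, and the Cx3cr1 window held none. A match is a description of letters, not a binding site.

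Levels are given as log2 of the processed signal minus the 75th percentile of that array, so that 0 is the signal below which 75% of the spots lie. Between 67.9% and 74.0% of spots were well above background, and the 75th percentile was 334.2 to 1023.4 signal units, highest on the intestine array. Levels of different probes cannot be ranked against each other, because probes differ in how brightly they read the same amount of RNA. The scanner's own error on a level was about 0.14 log2 units for most of the members' brighter probes, and it leaves out the variation between embryos. A second yardstick was the spread between probes of the same gene. Its median SD was 0.25 log2 units for stomach minus esophagus, 0.46 for intestine minus esophagus and 0.31 for intestine minus stomach. Of the 10 markers of the organs, 9 were highest in the organ they mark, among them Pax9 in esophagus (level −0.72), Barx1 in stomach (4.43) and Cdx2 in intestine (1.85). Cdx1, an intestinal marker, was well above background in stomach alone (−5.57), at least 2.64-fold higher than in intestine.

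Taken by the probe that represents each gene, 7 of the 9 macrophage genes stood lowest in esophagus. So did 48.3% of the 12864 genes measured on all arrays. For Csf1r and Adgre1, both among the 7, stomach minus esophagus was 0.07 and 0.18, within a scanner error of about 0.20. With levels scaled as above, the set differed little between stomach and intestine. Tyrobp, Ptprc, Mrc1, C1qb and C1qa carried the difference from esophagus, and Cx3cr1, Aif1, Csf1r and Adgre1 stood within a narrow band in all 3 organs. Over the 9 genes the median difference was 0.28 log2 units (1.22-fold) for stomach minus esophagus, 0.46 (1.37-fold) for intestine minus esophagus and 0.16 (1.12-fold) for intestine minus stomach. The medians over all genes compared were 0.15, 0.13 and −0.02.

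**Figure D1:**
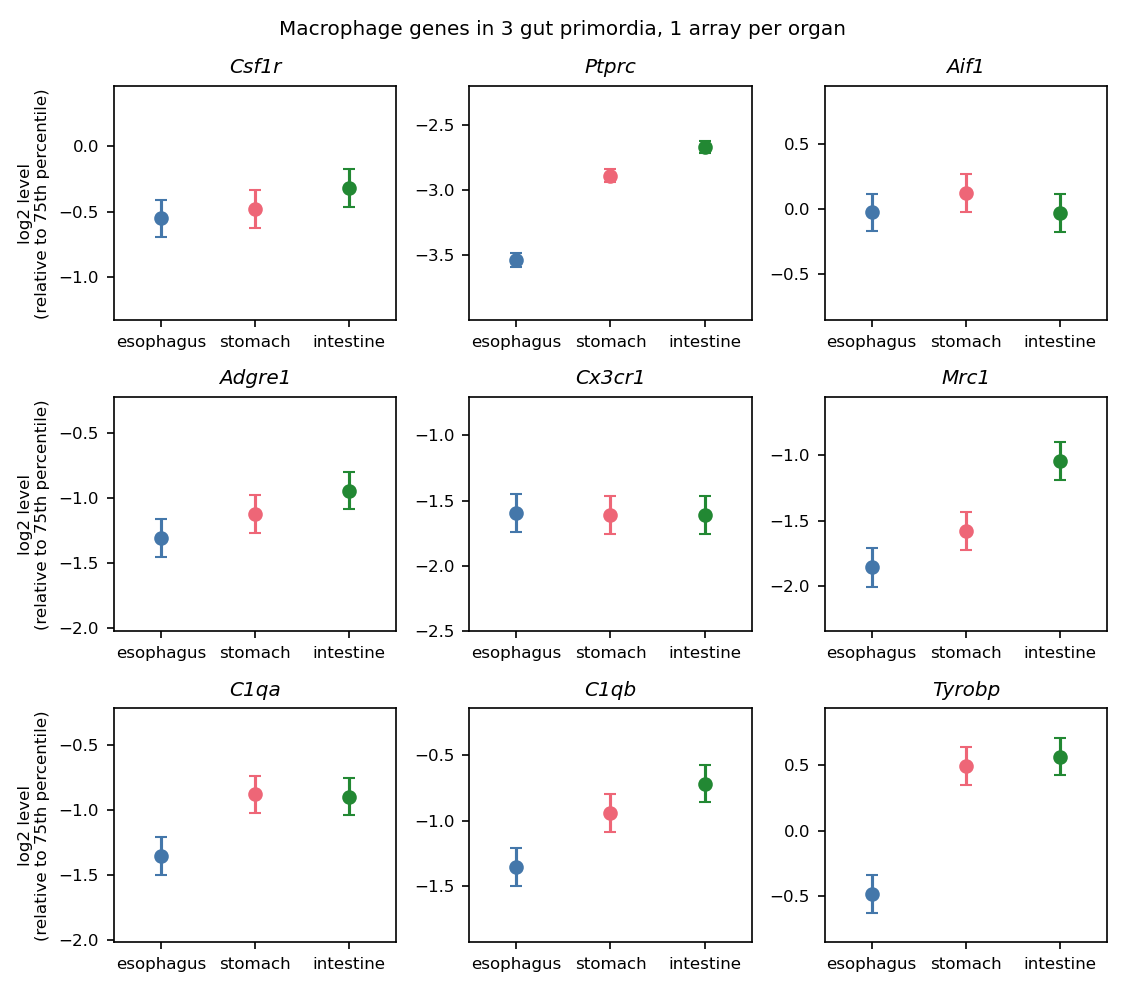
Log2 level of the 9 macrophage genes (y axis, log2 of the signal relative to the array's 75th percentile) in esophagus, stomach and intestine, with bars for the scanner's error and 1 array per organ. The bars of Ptprc are divided by the square root of its 10 spots. Tyrobp spans 1.05 log2 units between its lowest and highest organ and Cx3cr1 spans 0.02.

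The receptors of the set come first. Csf1r encodes the receptor for the growth factors CSF1 and IL-34, on which most tissue macrophages depend. In esophagus, stomach and intestine its levels were −0.55, −0.48 and −0.32, from processed signals of 268.1, 239.9 and 820.7. The levels lay in that order but within 0.23 log2 units, and each of the 3 differences was smaller than the probe spread just given. Stomach minus esophagus was 0.07 and intestine minus esophagus 0.23, each with a scanner error of 0.20. Its second probe read −2.45, −2.08 and −1.98, again lowest in esophagus and highest in intestine. The third probe ran the other way and read −3.67, −4.50 and −5.59. By the third probe the level in intestine was 1.93 log2 units below that in esophagus, so the direction for Csf1r depends on the probe.

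Cx3cr1 encodes the receptor for fractalkine, the product of Cx3cl1, and is carried by yolk sac-derived macrophages and microglia. It read −1.60 in esophagus and −1.61 in both stomach and intestine. The 3 organs could not be put in order, since the largest gap was 0.02 log2 units against a scanner error of 0.21. A second, dimmer probe read it as not well above background in esophagus, at −4.98 in stomach and at −4.10 in intestine. By that probe the intestine level of Cx3cr1 was 2.44-fold higher than that of esophagus, with a scanner error of 0.39 log2 units. Values given as bounds set the brighter organ against the dimmest signal that the other array could measure. Where the dim probe's own signal was higher, that signal was used, and the value is no strict lower limit. This was so for Cx3cr1 here.

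The ligands of these receptors were read by 1 probe each. Csf1, the main ligand of Csf1r, had levels of −0.35, −0.57 and −0.35 in esophagus, stomach and intestine. Il34, the alternative ligand, had levels of −4.52, −4.00 and −4.73 and lay 1.66-fold below stomach in intestine. Cx3cl1 had levels of −1.86, −1.92 and −2.15. Their median differences were −0.06 for stomach minus esophagus, −0.21 for intestine minus esophagus and −0.23 for intestine minus stomach, below the macrophage genes' medians in each.

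Ptprc encodes CD45, the phosphatase on the surface of nearly all white blood cells. Its main probe was printed 10 times on each array, which gives a direct measure of the error within an array. The levels were −3.53, −2.89 and −2.66 in esophagus, stomach and intestine, and the SD over the 10 spots was 0.12, 0.07 and 0.07. Esophagus was the low organ, by 0.65 log2 units (1.57-fold) against stomach and 0.87 (1.83-fold) against intestine, with a scanner error of 0.07 on each. That error was divided by the square root of the 10 spots, which share 1 hybridisation. Undivided, the errors on the levels were 0.16, 0.15 and 0.15. Both differences are larger than the median SD between probes of 1 gene, and the 0.22 between intestine and stomach is not. The alternative normexp background correction added a constant of 50 to every signal, which shrinks differences between dim signals. The processed signals of this probe were 33.9, 45.2 and 161.4 in esophagus, stomach and intestine. With normexp it gave 0.37 for stomach minus esophagus, −0.0054 for intestine minus esophagus and −0.37 for intestine minus stomach. The place of intestine in this order thus depends on the correction, and the part of the added constant in this was not tested. A second probe ran the other way. It read −4.57 in esophagus and −6.49 in intestine and was not well above background in stomach, which puts stomach at least 2.40-fold lower than esophagus. The third probe was well above background in intestine alone, at −6.61, and gave no fold.

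Adgre1 and Mrc1 encode surface proteins of mature macrophages. Adgre1, the F4/80 antigen, had levels of −1.31, −1.12 and −0.94 in esophagus, stomach and intestine. These lay in an order from esophagus to intestine, but the whole range of 0.36 log2 units was less than the median SD of 0.46 between probes. A second probe was not well above background in any organ. Mrc1, the mannose receptor CD206 that takes up glycoproteins, had levels of −1.86, −1.58 and −1.04. Its signals were 108.3, 111.9 and 496.9. Among the 9 genes Mrc1 alone differed by more than the probe spread in all 3 comparisons, with 0.28 for stomach minus esophagus, 0.82 for intestine minus esophagus and 0.54 for intestine minus stomach. With normexp background correction these became 0.24, 0.45 and 0.21, against probe spreads of 0.25, 0.46 and 0.31. Those spreads were taken from the main values, and the first 2 differences lie only just below them. With the percentile taken over detected probes the first became 0.22. Mrc1 had 1 named probe.

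Aif1 encodes IBA1, an actin-bundling, calcium-binding protein used as a stain for macrophages and microglia. Its main probe read −0.02, 0.12 and −0.03 in esophagus, stomach and intestine. Stomach was highest, but by no more than 0.15 log2 units, which is less than the scanner error of about 0.20. The second probe of Aif1 read −2.32, −1.84 and −1.78, and put esophagus below both other organs by 0.49 and 0.54.

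C1qa and C1qb encode chains of C1q, the first component of the complement cascade, which tags dying cells for uptake and is made mainly by macrophages. C1qb, C1qc and C1qa are neighbours on chromosome 4, between Ephb2 and Epha8, in the RefSeq table. C1qa had levels of −1.35, −0.88 and −0.90 in esophagus, stomach and intestine. C1qb had levels of −1.35, −0.94 and −0.72. Both were lowest in esophagus, with 0.47 and 0.42 for stomach minus esophagus, both above the median SD of 0.25 between probes of 1 gene. C1qc, which encodes the third chain and was not among the named set, had levels of 0.44, 0.54 and 0.01. It was thus lowest in intestine, 0.54 log2 units (1.45-fold) below stomach, where C1qa differed by −0.02 and C1qb by 0.22.

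Tyrobp encodes DAP12, an adaptor with a cytoplasmic activation motif that carries signals from myeloid receptors such as TREM2. Its levels were −0.49, 0.50 and 0.57 in the same order of organs, from signals of 280.8, 471.1 and 1517.1. Esophagus was low and the other organs stood close together, 0.07 log2 units apart. Tyrobp in stomach stood 1.97-fold above esophagus (0.98 log2 units) and in intestine 2.08-fold (1.05), each with a scanner error of 0.20. The latter value came to just under 2-fold with the percentile over detected probes (0.98) and with normexp (0.99). Tyrobp was read by 1 probe. Of the genes that work with Tyrobp, Trem2 ran the other way, with levels of −0.74, −0.96 and −1.58 in esophagus, stomach and intestine. Its second probe also put intestine below esophagus, by 0.63 log2 units. Fcer1g, a related adaptor, had levels of 0.17, 0.40 and 0.65, and Syk, the kinase that both adaptors recruit, −2.67, −2.22 and −2.09. Siglech, another partner gene, was not well above background in any organ.

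A difference of at least 2-fold was used as the count threshold. In stomach 0 of 9 macrophage genes were higher than in esophagus by that much, where 4.14% of 13740 genes were, and 0 were lower, where 5.71% were. Between intestine and esophagus 1 of 9, Tyrobp, was higher in intestine, against 8.40% of 14462 genes, and 0 were lower, against 11.5%. Between intestine and stomach 0 of 9 were higher, against 4.77% of 14384 genes, and 0 were lower, against 7.18%. These counts lie near the background, so at 2-fold the macrophage genes did not stand apart from other genes. The median size of a difference, without regard to sign, was 0.28 against 0.35 over all genes for stomach and esophagus, 0.46 against 0.49 for intestine and esophagus, and 0.16 against 0.33 for intestine and stomach.

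The sign was more uniform than the size, but many of the signs rest on small differences. Stomach stood above esophagus in 8 of 9 macrophage genes, with Cx3cr1 (−0.02) the exception, and 62.0% of all genes compared also did. Intestine stood above esophagus in 7 of 9, against 58.8% of all genes, and above stomach in 7 of 9, against 48.2%. The difference was larger than the probe spread in 5, 4 and 1 of the 9 genes in these 3 comparisons. The 7 above stomach include Cx3cr1, at 0.0049. Esophagus was the lowest organ for 7 of 9 macrophage genes and for 48.3% of the 12864 genes measured on all arrays. Intestine was the highest organ for 6 of the 9 and stomach for 2. The range between lowest and highest organ had a median of 0.47 log2 units in the set and 0.59 over all genes, and reached 2-fold for 1 of 9 and for 22.7% of all genes.

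Not all probes of the set gave these signs. Of the 16 probes, 12 were well above background in all 3 organs, and 1 in none. The esophagus and stomach arrays each measured 13 of them and the intestine array 15. Over the 12, stomach stood above esophagus by 10 probes, intestine above esophagus by 9 and intestine above stomach by 9. The probe among these that was 2-fold or more lower in intestine than in each other organ is the third Csf1r probe. With the mean of all measured probes in place of the brightest, Ptprc became −0.52 for intestine minus esophagus, against 0.87, and Csf1r −0.41, against 0.23. The members' median stayed above 0, at 0.36.

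**Figure D2:**
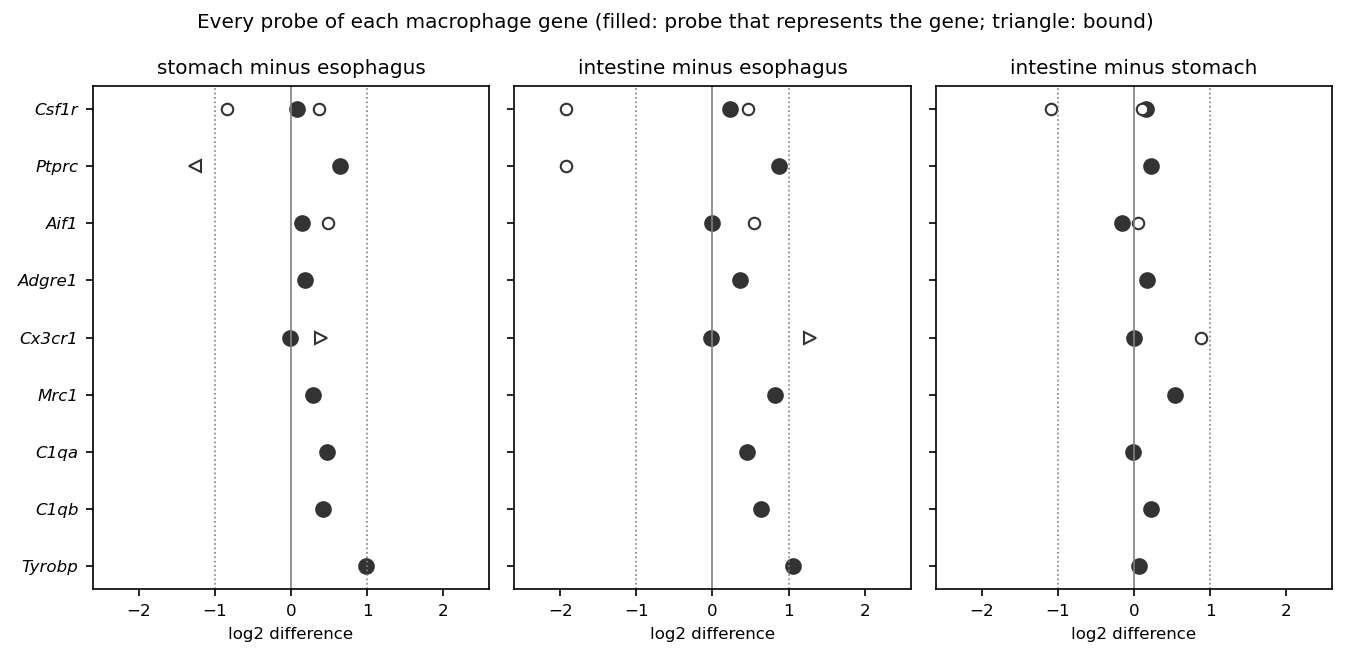
Difference in log2 level for each probe of the macrophage genes in the 3 comparisons, with filled points for the probe that represents its gene and open points for its other probes, and triangles for bounds. The third Csf1r probe lies at −0.84, −1.93 and −1.09, away from the other Csf1r probes.

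The choice of scaling moved the size of the differences that involve intestine. Spike-in RNA, added in known amounts, read 1.83 and 1.81 log2 units above the 75th percentile in esophagus and stomach but 0.91 in intestine. When arrays were set equal on the spike-ins, the median of all genes itself shifted to 1.03 for intestine minus esophagus and 0.86 for intestine minus stomach. The share of all genes that exceeded esophagus by 2-fold or more in intestine went from 8.40% to 51.6%, and that lower from 11.5% to 4.05%. Against stomach the shares went from 4.77% to 38.5% and from 7.18% to 1.46%. With each array set to the median of all its spots, the share of genes 2-fold or more above esophagus in intestine was 26.1%, and 6.66% were as far below. Under spike-in scaling 7 of 9 macrophage genes exceeded esophagus by 2-fold or more in intestine, and Aif1 (0.92) and Cx3cr1 (0.91), near 0 in the main values, were the other two. Relative to all genes the set stayed higher in every setting, but its excess varied around main values of 0.13, 0.32 and 0.18. Its median exceeded that of all genes by 0.10 to 0.32 log2 units for stomach minus esophagus, by 0.17 to 0.41 for intestine minus esophagus and by 0.09 to 0.25 for intestine minus stomach, over the main values and 9 alternatives. Scaling by spike-ins, by the median of all spots or by detected probes, and the deposited log2 values, shift each array by about 1 constant. Such a shift largely cancels in the excess, and both filters on dim probes leave the members' values as they are. Quantile normalization gave 0.32, 0.41 and 0.09, normexp 0.10, 0.17 and 0.16, and the mean of a gene's probes 0.22, 0.315 and 0.25.

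**Figure D3:**
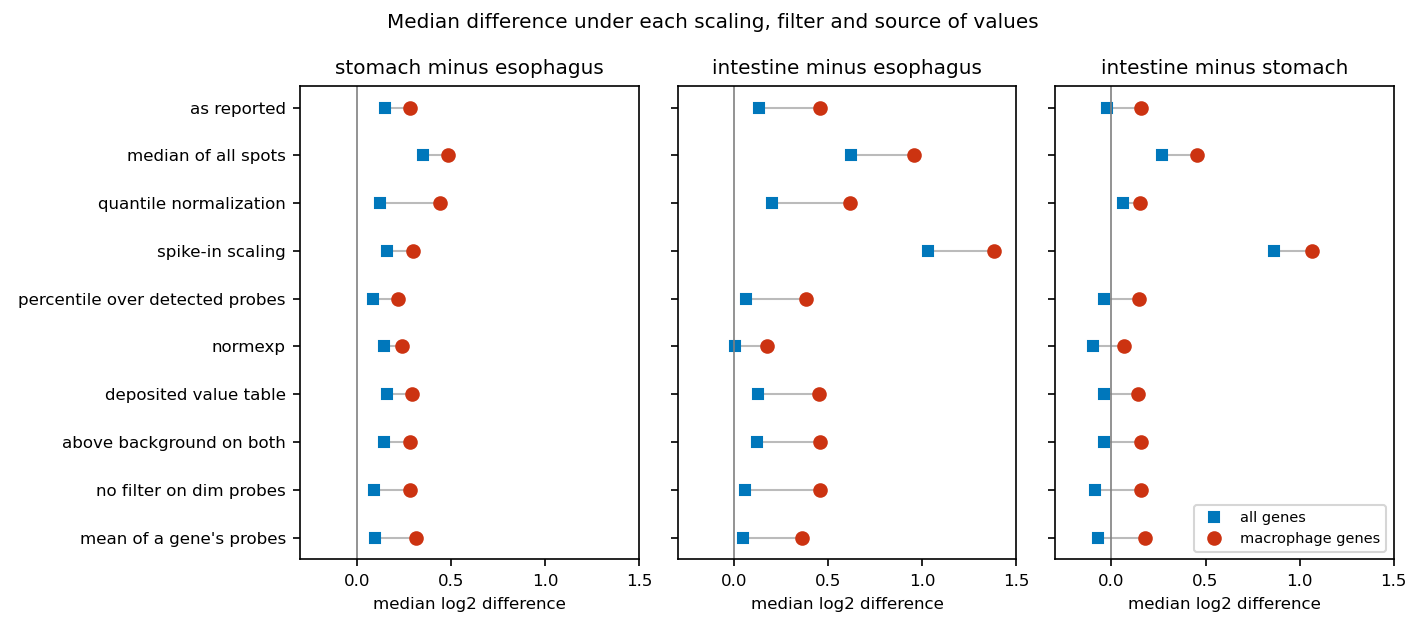
Median log2 difference of the 9 macrophage genes and of all genes under the main processing and each alternative, for the 3 comparisons. Both medians shift together under spike-in scaling, to 1.38 and 1.03 for intestine minus esophagus.

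Other genes of white blood cells and phagocytes were read from fixed lists. In the pan-leukocyte list, which excludes the members, the median difference was 0.42 log2 units for stomach minus esophagus, 0.33 for intestine minus esophagus and −0.05 for intestine minus stomach. In each of the first 2 comparisons 12 of the 15 genes compared stood above 0, against 62.0% and 58.8% of all genes. Of the 15, 13 were measured on both arrays and the rest gave bounds. Hcls1, an actin-regulating protein of blood cells, had levels of −1.53, −0.70 and −0.15 in esophagus, stomach and intestine and stood 2.61-fold above esophagus in intestine. Cyba, a subunit of the phagocyte oxidase, had levels of −0.03, 0.35 and 1.28 and was 2.48-fold higher. Laptm5, a lysosomal protein of blood cells, ran the other way, with −0.14, −0.59 and −0.71. Cd52, a surface glycopeptide of leukocytes, had levels of −1.36, −0.56 and −1.77 and was highest in stomach.

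Phagocytic receptors and complement genes had medians of −0.21, 0.00 and 0.12 in the 3 comparisons, where the medians of all genes were 0.15, 0.13 and −0.02. In stomach minus esophagus the list thus lay on the other side of 0 from all genes. Cd14, the co-receptor for bacterial lipopolysaccharide, had levels of −4.07, −2.98 and −2.85, and stood 2.13-fold above esophagus in stomach and 2.33-fold in intestine. Lyve1, a hyaluronan receptor of embryonic macrophages and also of lymphatic and sinusoidal endothelium, had levels of −1.55, −3.87 and −1.53. Stomach was the low organ, by 4.97-fold against esophagus and 5.06-fold against intestine. The second Lyve1 probe was well above background in esophagus (−3.83) and intestine (−3.57) and not in stomach. Mrc1 and Lyve1 are often found on the same macrophages, yet Mrc1 was 0.28 log2 units higher in stomach than in esophagus.

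Myeloid transcription factors had median differences of −0.22, −0.17 and 0.06 over 12 genes. At least 2-fold higher were 0, 1 and 1 of them, against 4.14%, 8.40% and 4.77% of all genes, and 2, 3 and 3 were at least 2-fold lower, against 5.71%, 11.5% and 7.18%. Runx1, a factor of blood formation, had levels of −1.97, −3.24 and −4.58. It was highest in esophagus and lowest in intestine, where it lay 6.13-fold below esophagus. Irf5, a factor of inflammatory macrophages, had levels of −2.53, −2.28 and −0.85 and stood 3.19-fold above esophagus in intestine.

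Lysosomal genes, which macrophages and many other cells express, had medians of 0.10, 0.45 and 0.27 over 14 genes. Psap, the precursor of the saposins, stood 2.13-fold above esophagus in intestine, and its second probe gave 0.87 log2 units. Grn, which encodes progranulin, read 13.9-fold above esophagus in stomach by its brighter probe and lower by 0.29 log2 units by the other, so its direction is unsettled. Genes enriched in microglia had medians of 0.09, 0.10 and 0.05. P2ry12, a purine receptor of microglia, had levels of −5.09, −4.84 and −4.62. Gpr34, a lysophospholipid receptor, was well above background in stomach (−4.13) and in intestine (−6.67), 5.82-fold lower in the latter, and not well above background in esophagus.

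**Figure D4:**
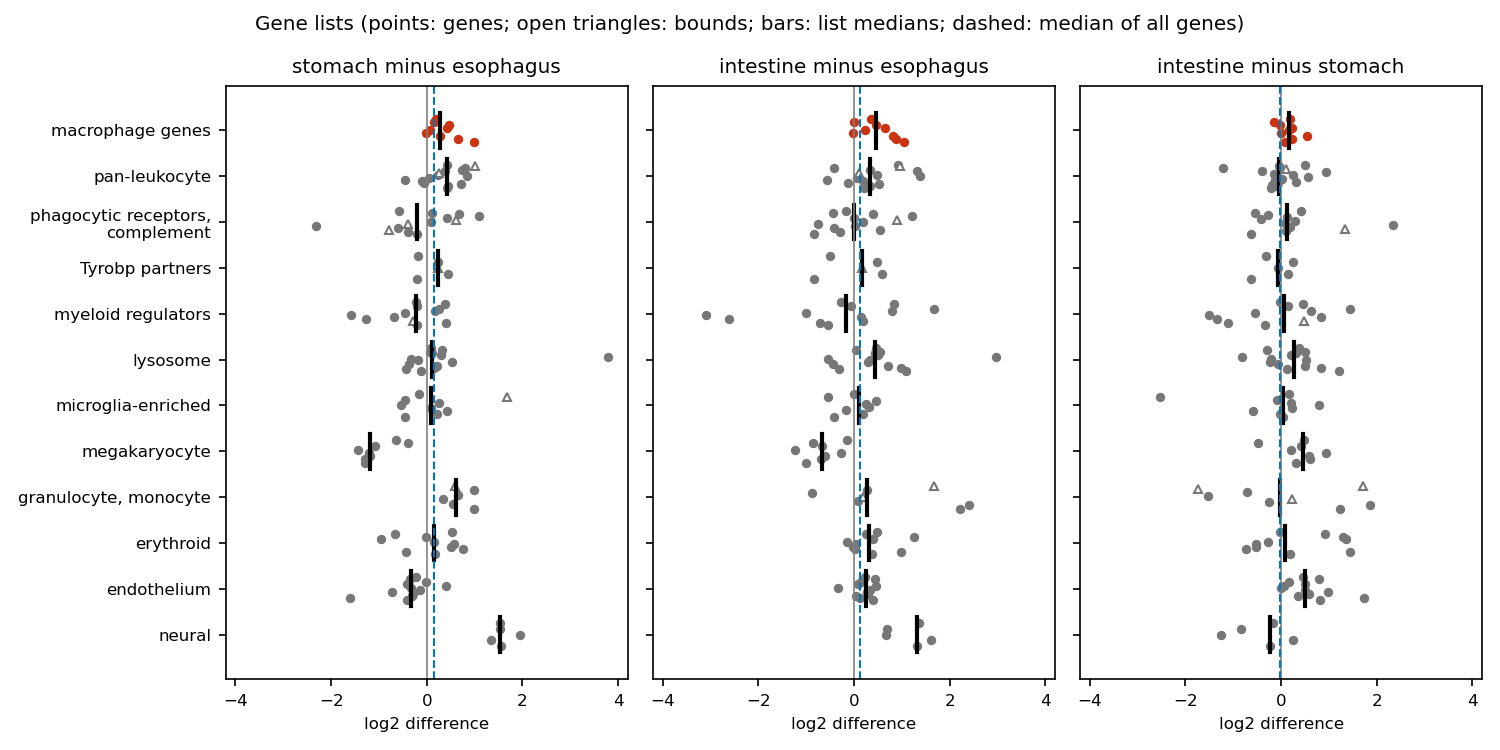
Log2 difference of each gene in the macrophage set and in lists of related genes and of other cell types, with the list median as a bar, for the 3 comparisons. Open triangles are bounds and the dashed line is the median of all genes. The macrophage medians are 0.28, 0.46 and 0.16, and the neural list lies further from 0, at 1.54, in stomach minus esophagus.

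Markers of other cells moved with the organs too, and their part in the macrophage values was not tested. Of all genes, 4.14% were 2-fold or more higher and 5.71% lower in stomach than in esophagus. The shares were 8.40% and 11.5% for intestine against esophagus, and 4.77% and 7.18% for intestine against stomach. For heart genes, both stomach and intestine lay below esophagus by 2-fold or more in 8 of 8, with medians of −5.87 and −6.64, and their summed level, in units of each array's 75th percentile, was 125.0, 2.58 and 3.81. Liver genes exceeded both other organs by 2-fold or more in intestine in 12 of 12, with summed levels of 14.1, 12.95 and 119.1 in esophagus, stomach and intestine. Neural genes exceeded esophagus by 2-fold or more in 5 of 5 in stomach and 3 of 5 in intestine, with summed levels of 2.84, 8.24 and 7.17. For the macrophage genes these sums were 4.26, 5.54 and 5.90.

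Blood and vessel markers differed in their own ways. Megakaryocyte and platelet genes stood lower in stomach than in esophagus in 8 of 8 members, and lower in intestine in 8 of 8. Of all genes, 62.0% and 58.8% stood above esophagus in those comparisons. In stomach 6 of the 8 were at least 2-fold lower, against 5.71% of all genes. The list's medians were −1.19 and −0.68, the latter becoming 0.25 under spike-in scaling. The summed level of the list was 12.2, 5.36 and 7.84. Itga2b, the platelet integrin chain, lay 2.71-fold below esophagus in stomach. Erythroid genes had medians of 0.16, 0.32 and 0.08 and summed levels of 348.7, 486.1 and 342.3. Endothelial genes had medians of −0.32, 0.24 and 0.50 and summed levels of 30.6, 25.8 and 35.6, with Tek, the angiopoietin receptor, at −1.70, −3.30 and −1.57.

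Granulocyte and monocyte genes were higher in stomach than in esophagus in 6 of the 6 compared, 1 of them by a bound, where 62.0% of all genes were. Of the 11 with a probe, 5 were not well above background in either organ. The list had a median of 0.62 there and had medians of 0.28 and −0.01 in the other comparisons. S100a8 and S100a9, which encode the chains of calprotectin, stood 5.33-fold and 4.66-fold above esophagus in intestine. Mpo, the neutrophil peroxidase, had levels of −0.23, 0.42 and −1.10 and was lowest in intestine. Elane and Csf3r, both defining genes of neutrophils, were not well above background in any organ. The summed level of the list was 1.39, 2.28 and 2.51. Lymphoid genes had 5 of 9 measured in each organ, with summed levels of 1.0, 1.31 and 1.54, and Cd3g, Rag1, Il7r and Ms4a1 were not well above background in any organ. Mast cell genes had summed levels of 0.28, 0.39 and 0.19, and 3 of the 5 compared stood higher in stomach than in esophagus, as did 62.0% of all genes. Cpa3, a mast cell protease, stood 3.99-fold above esophagus there, and Hdc and Mcpt4 lay below it, at −0.50 and −0.47 log2 units.

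The pattern over the 3 organs can be summarised by the median of the members' levels, each centred on its own mean: −0.29, 0.09 and 0.20 in esophagus, stomach and intestine. The root-mean-square distance of a member from this profile ran from 0.06 log2 units for C1qa to 0.28 for Tyrobp. With 1 array per organ, this profile is a description of these arrays.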

How the data were processed

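Per the file headers, spot intensity came from Agilent's Feature Extraction software, version 10.5.1.1. The processed signal that the authors deposited is, per the file headers, an intensity from which background was subtracted and trends over the slide were removed. A deposited table of log2 values, with medians of −2.97, −3.17 and −3.47, held log2 signals less each array's 75th percentile, with 99.8% to 99.9% of probes within 0.01 of the scanner value, and served as an alternative. Outlier spots (70 to 111 an array) were left out, and spots of a probe were averaged.

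Probes were named through accessions in a RefSeq table (GRCm38.p6): 24342 matched 1 symbol and 16770 none. The probe with the highest mean level represented a gene. A probe counted as measured when most of its spots were well above background, and genes measured on neither array were left out. With 1 array per organ no test was run. The calculations, in Python 3.11.15 (numpy 2.4.6, pandas 2.3.3) and limma 3.58.1, were tested on simulated data. Members and lists were chosen with earlier results of these data known. From each other list, the 2 genes with the largest measured difference in each direction of a comparison, and organ markers, could be named. The rule also provided for genes most like the members, but it took only genes with a 2-fold range, which 1 of 9 members reached, so these genes are not reported. Genes given only as not well above background, and the second probes of list genes, were picked after their values were seen.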

Additional observations from a re-analysis of the deposited data

How the results depend on the processing

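Of the 9 alternatives, 2 (both filters on dim probes) leave the members' values as they are. Over the other 7, 154 of 189 values of single genes stayed within the spread between probes of their main value, 35 moved further, and 24 had the opposite sign, among Cx3cr1 (9), Aif1 (6), C1qa (3), Csf1r (3) and Ptprc (3). Tyrobp, the gene called 2-fold apart, kept its sign. With each array set to the median of all its spots, the count of members at least 2-fold apart became 1 for stomach against esophagus and 4 for intestine against esophagus, with a median of 0.96 in the latter. Quantile normalization gave 1 and 3. Spike-in scaling gave 7 between intestine and esophagus and 5 between intestine and stomach, with medians of 1.38 and 1.07. The count for intestine against esophagus was 0 with the percentile taken over detected probes, with normexp background correction, and at a 4-fold threshold. Tyrobp then stood at 0.98 and 0.99 in the first 2 of these, against 1.05. All medians stayed above 0. With normexp they were 0.24, 0.17 and 0.07 in the 3 comparisons, and with the median of all spots 0.49 for stomach minus esophagus and 0.46 for intestine minus stomach. The cause of these shifts was not tested. Probes with signals near background limit the dimmer probes of Ptprc, Cx3cr1 and Adgre1. No paired analysis was possible because each organ has only 1 array and so the organs share only 1 replicate number, and no array could be left out.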
